A study of Homo sapiens with 6 samples.

Results

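A set of 59 genes with roles in G2 and mitosis was followed in A375 cells, a cell line from a human melanoma, that had received a plasmid for the long noncoding RNA SLNCR. The 59 genes were chosen by symbol: cyclins with CDK1 and the CDC25 phosphatases, mitotic kinases, the chromosomal passenger complex with the shugoshins, spindle checkpoint genes, kinetochore genes, kinesins, spindle proteins, condensin and chromosome structure genes, cytokinesis genes, and a few regulators. All 59 symbols were found among the 18318 genes of the count table, and all 59 passed the filter that left 12797 genes for testing. The control group was A375 cells given the empty pcDNA3.1 backbone, with 3 libraries, and the SLNCR group was A375 cells given the full-length SLNCR plasmid, also with 3 libraries. Both groups shared the vector, with its CAG promoter and puromycin resistance gene, as well as Lipofectamine and 48 h of growth in 2 µg/mL puromycin. RNA was depleted of ribosomal RNA, sequenced in pairs of 150 bases and counted per gene. The study set out to find genes that SLNCR regulates in these cells. The submitters call the 3 libraries of a group biological replicates without saying how the cultures were kept apart, so p-values measure the spread between these libraries.

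Cells that enter mitosis build up a regulated set of transcripts through G2. Cyclins A and B activate CDK1, which drives chromosome condensation and the breakdown of the nuclear envelope. Kinesins and microtubule-binding proteins then shape the spindle, the kinetochore ties each chromosome to it, and the spindle checkpoint holds back the anaphase-promoting complex until every kinetochore is attached. Many of these genes are switched on together through CHR and CCAAT elements in their promoters, which the DREAM and MYB-MuvB complexes and NF-Y read, with FOXM1 and MYBL2 among the activators. Because the genes serve as a readout of how many cells cycle, their levels are often read as a sign of proliferation. In bulk RNA, fewer cells in G2 or mitosis and less mitotic RNA per cell cannot be told apart.

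The libraries held between 9018886 and 10497547 counts in named genes. SLNCR, listed in the deposited counts as LINC00673, had 195, 194 and 193 counts in the empty vector group. In the SLNCR group it had 1786, 2569 and 2040 counts, in the order of replicates 1, 2 and 3 kept throughout. The groups did not overlap. Its level was 20.6 ± 1.04 CPM (counts scaled to a common library size; SD, n = 3) against 215 ± 40.0 CPM, a log2 fold change of 3.38 (SE 0.147, adjusted p = 3.1e-05). E2F1, the cell cycle transcription factor that the series title pairs with SLNCR, stood at 52.4, 46.0 and 48.0 CPM without SLNCR and at 38.9, 43.1 and 35.3 CPM with it, a log2 fold change of -0.32 (edgeR quasi-likelihood adjusted p = 0.0218) that was -0.08 (adjusted p = 0.588) once each library was corrected for the GC content of its transcripts, as described further on. The submitters label the cell type as epithelial. Melanoma markers summed to 1546 to 1593 CPM in the empty vector libraries and 1470 to 1533 CPM in the SLNCR libraries, 10 of the 13 found in the table with a mean of at least 10 counts. AXL alone gave 813 to 878 CPM of that sum over the 6 libraries. MCAM gave 278 to 329 CPM and CSPG4 171 to 195 CPM. MITF was at 76.5 to 104 CPM and SOX10 at 11.7 to 14.8 CPM, with PRAME and PAX3 also expressed. The pigment cell genes PMEL, DCT, TYRP1 and MLANA were below 2 CPM in each library. Keratinocyte and epithelial markers summed to 92.7 to 107 CPM and 87.4 to 96.8 CPM, 5 of 14 of them with a mean of at least 10 counts. Of these DSP was at 42.6 to 48.6 CPM, with KRT10 and KRT7 also expressed, while EPCAM, CDH1, KRT5 and KRT14 were below 1 CPM in each library. Abundant nuclear and small noncoding RNAs, read as a sign of library makeup, summed to 31776 to 36825 CPM and 31110 to 33396 CPM; the part of these lists in the results was not tested.

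Of the 59 mitotic genes, 14 rose after SLNCR and 7 fell, and the other 38 did not pass the test (edgeR quasi-likelihood test, Benjamini-Hochberg adjusted p below 0.05 over all genes tested). Over all genes tested, 8.84% were called higher and 7.67% lower, 16.5% in either direction. These shares were not taken at equal precision. The members had a median of 1221.5 mean counts per library against 308 over all genes, and a median SE of 0.063 against 0.092. At an unadjusted p below 0.05, 22 mitotic genes were higher and 9 lower, where 34.8% of all genes passed in either direction. DESeq2 called 13 higher and 6 lower, against 10.8% and 7.98% of the genes it adjusted. The 14 that rose were CCNA2, CDK1, SGO2, BUB3, NDC80, NUF2, KIF11, KIF20B, HMMR, CKAP2, ASPM, SMC2, SMC4 and ECT2. The 7 that fell were PLK1, AURKB, INCENP, CDC20, KIFC1, TACC3 and MYBL2. The changes were small: log2 fold changes ran from -0.29 to 0.39, with a median of 0.06 against -0.01 over all genes, and the median size without sign was 0.15 against 0.16 over all genes. The 3 SLNCR libraries lay above all 3 empty vector libraries for 24 mitotic genes and below them for 7, while 28 overlapped. Among all genes tested, 19.7% lay wholly above and 19.1% wholly below. The counts moved with the libraries included. Without empty vector replicate 1, without empty vector replicate 2 or without SLNCR replicate 1, none of the 59 kept an adjusted p below 0.05 in the edgeR fit, with 15, 19 and 20 higher and 5, 8 and 8 lower at an unadjusted p below 0.05. By adjusted p, those fits called 1, 1 and 1 higher and 0, 1 and 0 lower over all genes tested, so the loss was not particular to the mitotic genes. Without empty vector replicate 3 the counts of mitotic genes by adjusted p were 14 higher and 6 lower (1007 and 877 over all genes). Without SLNCR replicate 2 they were 21 and 8 (1722 and 1644), and without SLNCR replicate 3 they were 11 and 4 (807 and 710).

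The 14 genes that rose and the 7 that fell did not share a range of GC content, the share of G and C bases in a gene's longest GENCODE transcript. Those that rose held 34.2% to 42.1% GC and those that fell held 55.6% to 60.5%. Each direction cut across the roles, with a cyclin, a kinesin and condensin subunits on one side and a kinase, a kinesin and CDC20 on the other. To show what this difference looks like in the transcripts, 150 bases of the longest coding exon are given for KIF20B and SGO2, which rose and are low in GC, and for INCENP and MYBL2, which fell and are high in GC. G and C stand in capitals, and each stretch was taken where its GC is closest to that of the whole coding sequence (GENCODE 29, GRCh38, plus strand, at chr10:89737389-89737538, chr2:200571155-200571304, chr11:62129911-62130060 and chr20:43702506-43702655).
KIF20B: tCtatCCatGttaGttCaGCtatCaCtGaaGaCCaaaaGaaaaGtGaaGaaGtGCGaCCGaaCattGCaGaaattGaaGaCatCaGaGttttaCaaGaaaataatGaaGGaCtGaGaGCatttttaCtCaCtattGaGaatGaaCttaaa
SGO2: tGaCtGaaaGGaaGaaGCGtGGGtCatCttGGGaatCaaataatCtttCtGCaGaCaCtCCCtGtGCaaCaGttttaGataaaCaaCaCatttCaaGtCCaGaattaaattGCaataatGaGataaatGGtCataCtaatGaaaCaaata
INCENP: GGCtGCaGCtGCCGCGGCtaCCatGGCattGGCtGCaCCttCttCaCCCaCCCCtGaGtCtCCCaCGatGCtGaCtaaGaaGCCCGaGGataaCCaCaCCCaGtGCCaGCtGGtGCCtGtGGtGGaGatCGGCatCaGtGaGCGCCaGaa
MYBL2: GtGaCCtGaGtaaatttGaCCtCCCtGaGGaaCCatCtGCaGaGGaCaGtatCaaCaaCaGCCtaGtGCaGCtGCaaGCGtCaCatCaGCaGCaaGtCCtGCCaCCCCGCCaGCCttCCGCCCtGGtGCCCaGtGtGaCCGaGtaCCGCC
The stretches hold 34.7%, 34.7%, 61.3% and 58.7% GC in that order, beside 34.7%, 34.5%, 61.5% and 58.5% over the whole coding sequences. Over the 59 genes, coding GC ran from 34.5% to 61.5% with a median of 45.3%, and 3′ UTR GC from 24.5% to 58.9% with a median of 35.6%.

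**Figure D1:**
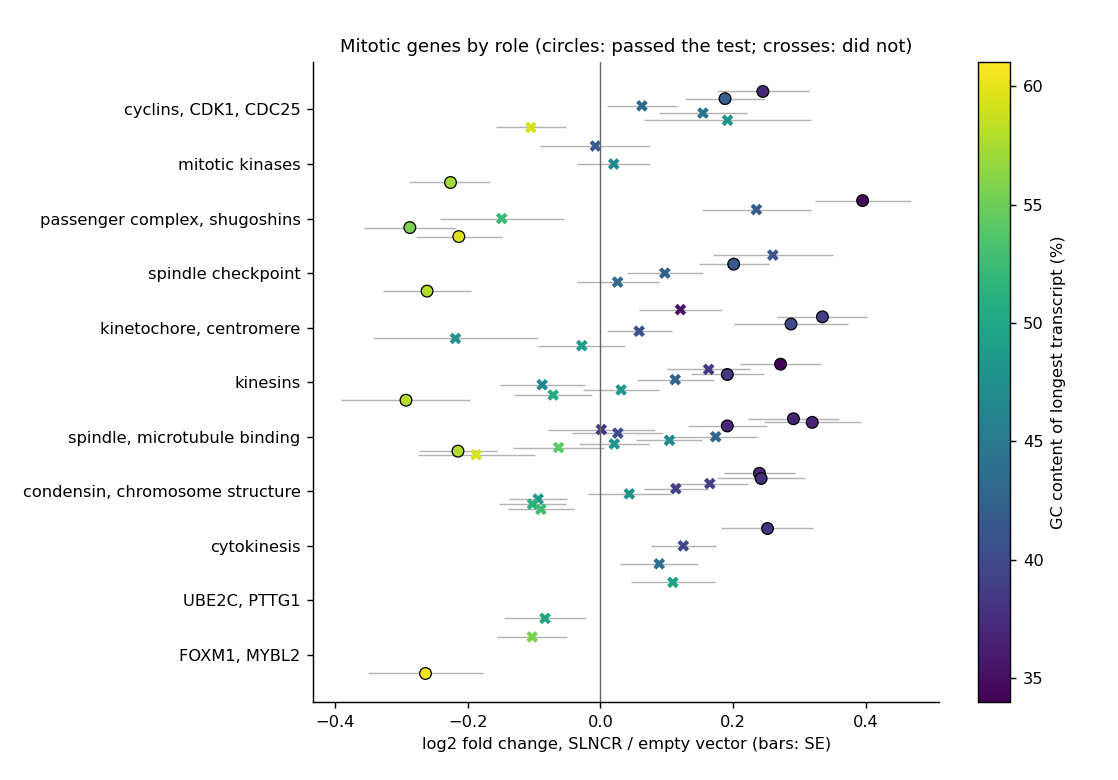
Log2 fold change of SLNCR over empty vector (x axis) for each of the 59 mitotic genes, grouped by role (y axis), with bars for the SE and colour for the GC content of the longest transcript in percent. Circles passed the test and crosses did not; the values run from SGO2 at 0.39 to KIFC1 at -0.29, and the circles to the right of 0 hold 34.2% to 42.1% GC.

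Among the cyclins, CDK1 and the CDC25 phosphatases, 2 of 6 rose and none fell (edgeR; 3 of the 6 passed at an unadjusted p below 0.05), with a median log2 fold change of 0.17 that was 0.07 after correction for GC content. CDK1, the kinase that drives entry into mitosis (chromosome 10, 60778331 to 60794852, plus strand), stood at 51.5, 50.9 and 52.8 CPM without SLNCR and at 63.0, 63.0 and 57.5 CPM with it. Every SLNCR library was above every empty vector library, and the means of 51.7 ± 0.954 and 61.2 ± 3.18 CPM (SD, n = 3) were 0.24 apart in log2 (SE 0.0697, edgeR adjusted p = 0.0279). CCNA2, the cyclin of S phase and early mitosis, went from 143, 149 and 158 CPM to 165, 165 and 183 CPM, again without overlap (0.19, SE 0.0605, edgeR adjusted p = 0.0434). Its exons overlap those of EXOSC9 on the other strand, and whether counting used the strand is not stated, so reads of such a pair cannot be told apart. CCNB1, the mitotic cyclin that partners CDK1, was measured at 304, 303 and 316 CPM against 314, 308 and 342 CPM. The highest empty vector library lay above the 2 lower SLNCR libraries, and CCNB1 did not pass (log2 fold change 0.06, SE 0.0527, edgeR adjusted p = 0.415).

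Of the 3 mitotic kinases, 1 fell. PLK1, a kinase of mitotic entry, centrosome maturation and cytokinesis (chromosome 16, 23677656 to 23690367, plus strand), stood at 289.7, 262 and 248 CPM without SLNCR and at 234, 235 and 214 CPM with it. The groups did not overlap, and the log2 difference was -0.23 (SE 0.0613, edgeR adjusted p = 0.0231). AURKA, the kinase of the centrosomes and spindle poles, showed 147, 137 and 141 CPM against 145, 141 and 144 CPM, which overlapped throughout (0.02, adjusted p = 0.809). Their transcripts hold 57.1% and 46.6% GC.

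The chromosomal passenger complex corrects faulty attachments at the centromere, and the shugoshins protect centromeric cohesion there. Of these 5 genes, 1 rose and 2 fell. AURKB, the kinase of the complex (chromosome 17, 8204733 to 8210600, minus strand), was at 88.1, 86.4 and 79.8 CPM without SLNCR and at 66.9, 74.2 and 67.2 CPM with it. All 3 SLNCR libraries were lower, from a mean of 84.7 ± 4.38 to 69.4 ± 4.11 CPM (SD, n = 3; log2 fold change -0.29, SE 0.0685, edgeR adjusted p = 0.0159). INCENP, its scaffold (chromosome 11, 62123973 to 62153163, plus strand), moved the same way, from 159, 151 and 141 CPM to 133, 136 and 119.5 CPM (-0.21, SE 0.0643, edgeR adjusted p = 0.0342). SGO2 (chromosome 2, 200510008 to 200583782, plus strand) went the other way, from 50.2, 57.1 and 58.8 CPM to 74.5, 71.6 and 71.9 CPM. Its mean was 55.3 ± 4.55 against 72.7 ± 1.62 CPM (SD, n = 3), 1.31 times higher. No other mitotic gene among the 59 had a larger log2 fold change (0.39, SE 0.0724, edgeR adjusted p = 0.0137). Its paralogue SGO1, named after its values were seen, stood at 39.8, 39.2 and 47.5 CPM against 49.7, 48.8 and 50.3 CPM and did not pass (0.23, edgeR adjusted p = 0.0571), although the groups did not overlap. AURKB and INCENP hold 55.6% and 59.6% GC, and SGO2 and SGO1 hold 34.7% and 41.7%. SGO2 shares exon bases with KCTD18 and SGO1 with SGO1-AS1, each on the opposite strand.

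In the spindle checkpoint, 1 of 5 genes rose and 1 fell (edgeR; 3 of the 5 passed at an unadjusted p below 0.05). The median log2 fold change was 0.10, or -0.01 after correction for GC content. The largest log2 fold change above 0 in this role, 0.26, overlapped between the groups and did not pass (edgeR adjusted p = 0.057). BUB3, which brings the BUB kinases to kinetochores, read 232, 233 and 238 CPM without SLNCR and 264, 259 and 285 CPM with it. Neither group overlapped the other (0.20, SE 0.0526, edgeR adjusted p = 0.0207). CDC20, the activator of the anaphase-promoting complex that the checkpoint holds back, read 361, 345 and 333 CPM against 308, 305 and 253 CPM. It fell in all 3 SLNCR libraries, with SLNCR replicate 3 lowest (-0.26, SE 0.0661, edgeR adjusted p = 0.0188). BUB1, a checkpoint kinase, differed by a log2 fold change of 0.10 and did not pass (106, 109.9 and 110.2 CPM against 118, 113 and 117 CPM, edgeR adjusted p = 0.234). The 3 SLNCR libraries were nonetheless the 3 highest. BUB3 and BUB1 hold 41.4% and 42.5% GC, CDC20 57.9%.

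Of the 6 kinetochore and centromere genes, 2 rose and none fell (2 passed at an unadjusted p below 0.05), with a median log2 fold change of 0.09 that turned to -0.05 after correction for GC content. Both that rose are subunits of the NDC80 complex, which grips the microtubule end. NUF2 (chromosome 1, 163266576 to 163355764, plus strand) was at 56.3, 61.7 and 60.3 CPM in empty vector cells and at 73.1, 73.2 and 78.5 CPM in SLNCR cells. The gap between the groups was wider than the spread within either, with means of 59.4 ± 2.82 and 74.9 ± 3.05 CPM (SD, n = 3; log2 fold change 0.33, SE 0.0679, edgeR adjusted p = 0.0137). NDC80 had 31.0, 29.5 and 31.1 CPM against 38.1, 33.7 and 40.2 CPM (0.29, SE 0.0861, edgeR adjusted p = 0.0336). CENPE, the kinesin that carries chromosomes to the spindle equator, had 85.5, 93.0 and 94.7 CPM against 99.4, 98.3 and 99.0 CPM. It did not overlap between the groups, yet did not pass (0.12, SE 0.0619, edgeR adjusted p = 0.175), and its value after correction for GC content was -0.12. At 35.3%, CENPE is among the members lowest in GC.

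**Figure D2:**
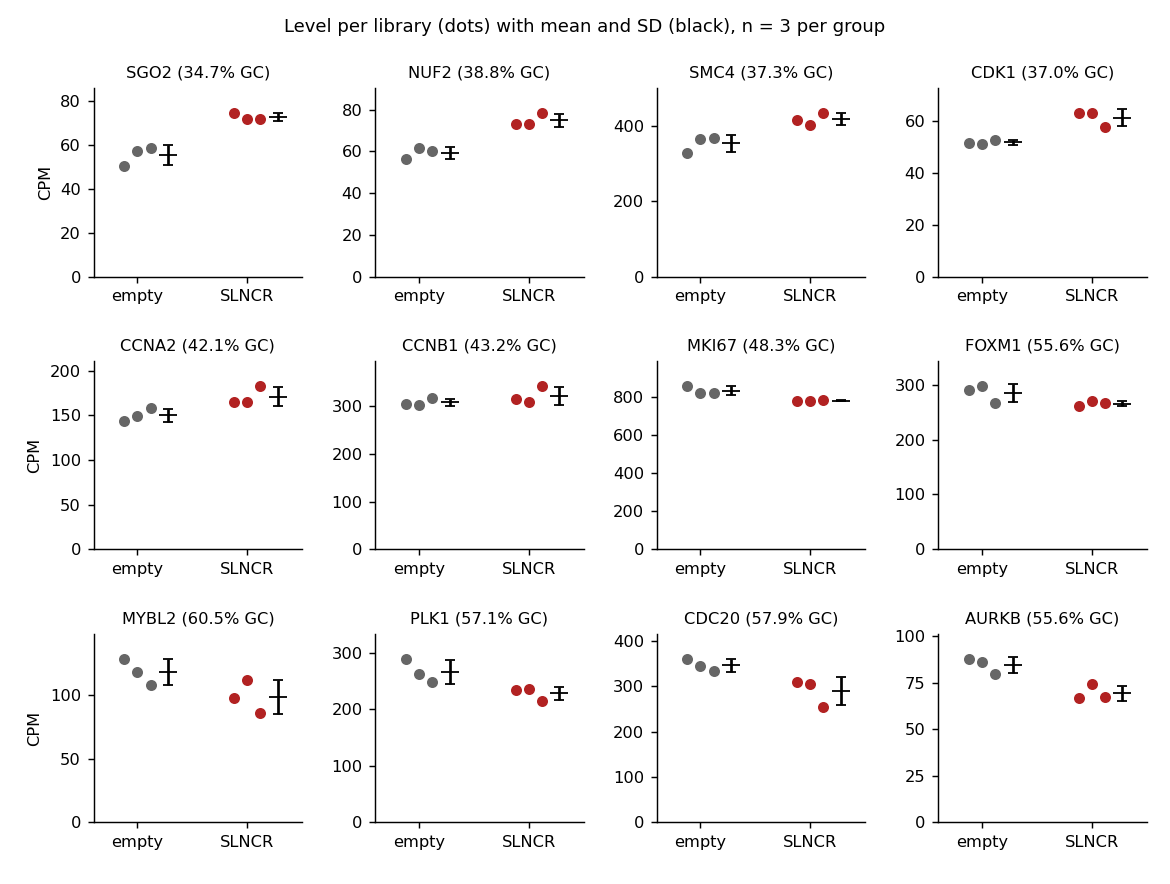
Level in CPM (y axis, from 0) of 12 mitotic genes in each library (dots), with the mean and SD of 3 libraries per group in black and the GC content in each title. SGO2, NUF2, SMC4, CDK1 and CCNA2 sit higher in all 3 SLNCR libraries, CCNB1, FOXM1 and MYBL2 overlap, and PLK1, CDC20, AURKB and MKI67 sit lower in all 3.

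Kinesins moved in both directions. Of 8, 2 rose and 1 fell, and the median log2 fold change was 0.07, or -0.02 after correction for GC content. KIF11, the motor that pushes the spindle poles apart, was at 174, 184 and 182 CPM without SLNCR and at 198, 202 and 217 CPM with it (0.19, SE 0.0551, edgeR adjusted p = 0.029). KIF20B, a motor of the spindle midzone and cytokinesis (chromosome 10, 89701610 to 89774939, plus strand), was at 113, 113 and 124 CPM against 143, 135 and 146 CPM (0.27, SE 0.0604, edgeR adjusted p = 0.0143). In both the SLNCR libraries were the 3 highest. KIFC1, a minus-end motor that focuses spindle poles, was at 65.2, 58.3 and 56.6 CPM against 47.6, 57.3 and 41.8 CPM. SLNCR replicate 2 lay inside the empty vector range, and the call was close to the threshold (-0.29, SE 0.0971, edgeR adjusted p = 0.0493). KIF11 and KIF20B hold 38.3% and 34.2% GC and KIFC1 holds 57.9%. After correction for GC content the KIF11 value was -0.01, that of KIF20B 0.01 and that of KIFC1 -0.12.

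Among the 11 genes of spindle assembly and microtubule binding, 3 rose and 1 fell. HMMR, which helps to organise spindle microtubules, stood at 68.6, 73.2 and 73.9 CPM against 89.0, 81.5 and 93.6 CPM (0.29, SE 0.0686, edgeR adjusted p = 0.0159). CKAP2, a microtubule stabiliser, stood at 119, 120.2 and 118 CPM against 142, 135 and 169 CPM (0.32, SE 0.0731, edgeR adjusted p = 0.0151). The empty vector libraries of CKAP2 lay close together, and SLNCR replicate 3 was well above the other SLNCR libraries. ASPM, a spindle pole protein, rose from 238, 238 and 255 CPM to 274, 259 and 302 CPM (0.19, edgeR adjusted p = 0.0386). TACC3, which bridges microtubules of the kinetochore fibre, fell from 142, 133 and 133 CPM to 115, 122 and 114 CPM (-0.21, edgeR adjusted p = 0.0237). ASPM, TACC3, INCENP and KIFC1 are named because they passed the test and so were picked after their values were seen. The 3 that rose hold 36.7% to 37.1% GC and TACC3 holds 57.8%. In each of these 4 genes the groups did not overlap. HMMR shares exon bases with the antisense gene HMMR-AS1.

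Condensin compacts chromosomes in mitosis, and both of its SMC core subunits rose. SMC4 (chromosome 3, 160399274 to 160434962, plus strand) stood at 329, 366 and 369 CPM without SLNCR and at 416, 404 and 436 CPM with it, and SMC2 at 152, 161 and 178 CPM against 190.0, 183 and 209 CPM. All 3 SLNCR libraries were above the empty vector libraries in both genes, by a log2 fold change of 0.24 each (edgeR adjusted p = 0.0147 for SMC4 and 0.0246 for SMC2). The non-SMC subunits of condensin I, named after their values were seen, did not pass. NCAPG differed by 0.16 (148, 165 and 158 CPM against 177, 171 and 180.5 CPM, edgeR adjusted p = 0.0555), NCAPH by 0.04 (74.7, 70.8 and 73.7 CPM against 76.7, 74.7 and 74.6 CPM, adjusted p = 0.644) and NCAPD2 by -0.09 (386, 381 and 369.8 CPM against 346, 375 and 346 CPM, adjusted p = 0.209). The GC content of the 5 subunits was 37.3% for SMC4, 37.6% for SMC2, 39.0% for NCAPG, 47.6% for NCAPH and 52.5% for NCAPD2. After correction for GC content the 5 values lay between -0.02 and 0.04. SMC4 shares exon bases with TRIM59, NCAPG with LCORL and NCAPD2 with MRPL51, each on the opposite strand.

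TOP2A, the topoisomerase that untangles sister chromatids, was at 505, 531 and 513 CPM against 559.9, 532 and 584 CPM and did not pass (0.11, SE 0.0485, edgeR adjusted p = 0.106). MKI67, the chromosome surface protein used as a proliferation marker, was the most highly counted member, at 859.7, 819.7 and 819 CPM against 779.7, 778 and 784 CPM. The 3 SLNCR libraries of MKI67 were the 3 lowest and lay close together (mean 780.5 ± 2.73 CPM against 833 ± 23.3 CPM; SD, n = 3), but the difference did not pass (-0.09, SE 0.0436, edgeR adjusted p = 0.136). Over all 8 genes of condensin and chromosome structure the median was 0.08, or -0.01 after correction for GC content, with 2 higher and none lower. At an unadjusted p below 0.05 in edgeR, 5 passed, of which MKI67 was lower and the others higher.

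Of 3 cytokinesis genes, 1 rose. ECT2, the exchange factor that activates RhoA at the cleavage furrow, stood at 141, 151 and 163 CPM against 179, 166 and 198 CPM (0.25, SE 0.0693, edgeR adjusted p = 0.0251). ANLN, the scaffold of the contractile ring, stood at 391, 392 and 401 CPM against 426, 413 and 453 CPM and did not pass (0.12, SE 0.0489, edgeR adjusted p = 0.082). In both genes the SLNCR libraries were the 3 highest. ANLN shares exon bases with MATCAP2 on the other strand. UBE2C, an E2 enzyme of the anaphase-promoting complex, and PTTG1, the securin it destroys, did not pass either: UBE2C had 96.7, 92.6 and 89.6 CPM against 90.0, 86.6 and 86.7 CPM (-0.08, edgeR adjusted p = 0.346), and PTTG1 had 79.1, 77.3 and 80.1 CPM against 87.3, 80.6 and 87.4 CPM (0.11, adjusted p = 0.225).

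Of the 2 transcription factors, MYBL2 fell and FOXM1 did not pass. MYBL2 (chromosome 20, 43667019 to 43716496, plus strand), which with MuvB activates late cell cycle genes, stood at 129, 118 and 108 CPM without SLNCR and at 97.2, 112 and 86.0 CPM with it. SLNCR replicate 2 lay above empty vector replicate 3, and the adjusted p of 0.0496 (edgeR; log2 fold change -0.26, SE 0.0868) was just under the threshold. FOXM1, an activator of G2 genes, stood at 290.2, 298 and 267 CPM against 260.5, 269.7 and 267 CPM, which overlapped (-0.10, SE 0.0531, edgeR adjusted p = 0.177). The transcripts hold 60.5% and 55.6% GC, and after correction for GC content the values were -0.05 and 0.04. FOXM1 shares exon bases with ITFG2 on the opposite strand.

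The relation with GC content was then described over the 59 genes. Log2 fold change fell by 0.21 for each 10 percentage points of GC (Pearson r = -0.88, Spearman rho = -0.86, n = 59 genes that share the same 6 libraries, so no p is given). Over all genes tested with a GC value the slope was -0.18 and r was -0.64 (n = 12790). Length went with it less closely (r = 0.24 with the log2 length of the longest transcript), and GC and length were themselves related among the members (r = -0.35). The coding sequence gave r = -0.89, the 3′ UTR r = -0.65 and the promoter, for the 50 genes with a listed promoter, r = -0.33. Where a gene had more than 1 listed promoter, that with the most matches to the elements described below was used.

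Ranked by GC, the 20 members lowest in GC (34.2% to 40.8%) held 12 of the 14 that rose and none that fell. In that same range of GC, 31.1% of the 2512 genes tested were called higher. Here too the members were counted more deeply, with a median of 1133 mean counts against 369 and a median SE of 0.067 against 0.086. All 20 had a log2 fold change above 0, with a median of 0.24, against 0.20 for all 2512 genes. The next 20 members (40.8% to 48.3%) held 2 that rose and none that fell, with a median of 0.08, the same as that of all 3946 genes of that range, of which 7.37% were called higher. The 19 members highest in GC (48.4% to 60.5%) held the 7 that fell and none that rose, with a median of -0.10. In this range 10.3% of 4637 genes were called lower, and their median was -0.12. A per-library correction for GC content left medians of 0.02, 0.00 and -0.02 in the 3 sets of members. That correction is fitted over all genes to remove the trend on GC, so medians near 0 in sets split by GC are largely built in.

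**Figure D3:**
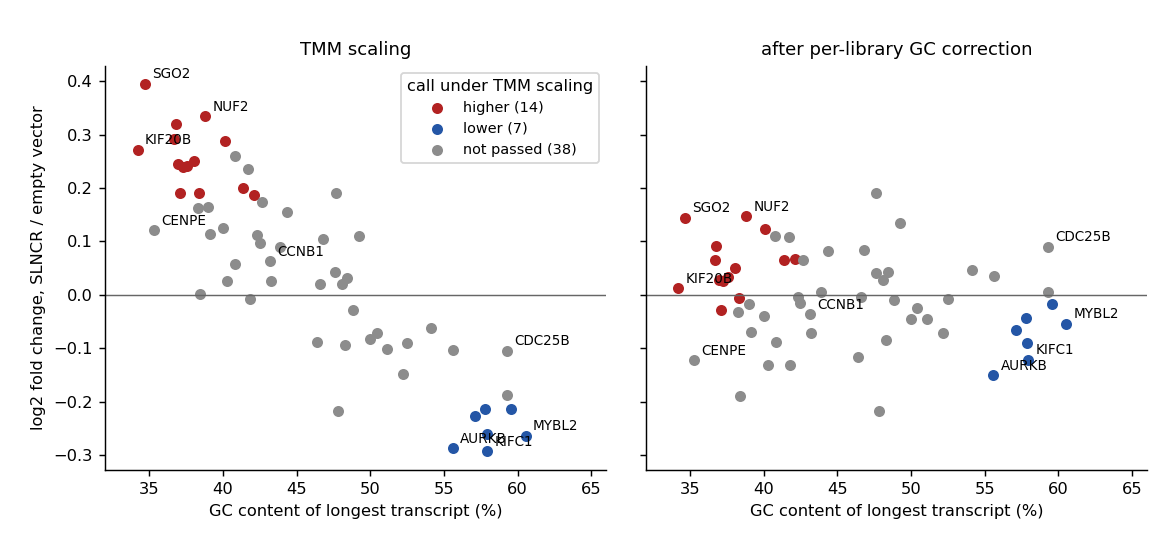
Log2 fold change of SLNCR over empty vector (y axis) against GC content of the longest transcript in percent (x axis) for the 59 mitotic genes, before (left) and after (right) the per-library correction for GC content. Colours give the call before correction; on the left the points slope downward with r = -0.88 and on the right r is -0.18.

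After the correction, which fits each library's deviation from the mean of all 6 on GC content over all genes, none of the 59 had an adjusted p below 0.05 in the edgeR fit. At an unadjusted p below 0.05, 5 were higher and 6 lower, against 22 higher and 9 lower before it; over all genes 7.46% were higher and 7.66% lower by that measure. The share of all genes called by adjusted p was 0.0156% after the correction, 2 of 12797 genes, and 15.1% by unadjusted p. SLNCR itself, the RNA on the plasmid, was not among those 2 genes. Having no GC value, it was given the median GC of the genes tested in that fit. It kept a log2 fold change of 3.38 in the corrected edgeR fit, with an adjusted p of 0.0539. A lack of calls in that fit therefore does not show a lack of change. Log2 fold changes of the members then ran from -0.22 to 0.19 with a median of -0.01, and their median size without sign was 0.06. The lowest adjusted p among them was 0.204, that of AURKB, whose log2 fold change was -0.15 after the correction. SGO2 stood at 0.14 (adjusted p = 0.286) and NUF2 at 0.15 (adjusted p = 0.232), while CDK1, SMC2 and SMC4 each stood at 0.03 and INCENP at -0.02. The sign was the same as before for 40 of the 59 genes and the opposite for 19, of which KIF11 and ASPM had passed the test before the correction and the other 17 had not.

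The slope on GC was also present between libraries of 1 group. The deviation of the 59 genes from the mean of all 6 libraries, in log2 CPM per 10 percentage points of GC, was 0.17, 0.11 and 0.04 without SLNCR and -0.10, -0.03 and -0.19 with it. The groups did not overlap, and the slopes over all genes were 0.13, 0.09 and 0.04 against -0.07, -0.03 and -0.16. Relative to the mean of the empty vector libraries, the 20 members lowest in GC averaged -0.05, 0.00 and 0.05 in those libraries and 0.21, 0.15 and 0.27 in the SLNCR libraries. The 19 highest in GC averaged 0.05, 0.01 and -0.06 against -0.13, -0.08 and -0.21. Empty vector replicate 3 and SLNCR replicate 2 were the pair from different groups nearest in slope, and SLNCR replicate 3 and empty vector replicate 1 were farthest apart. Since every SLNCR library differed from every empty vector library in slope, a GC trend that arose in library preparation and one that arose in the cells cannot be told apart by this design.

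**Figure D4:**
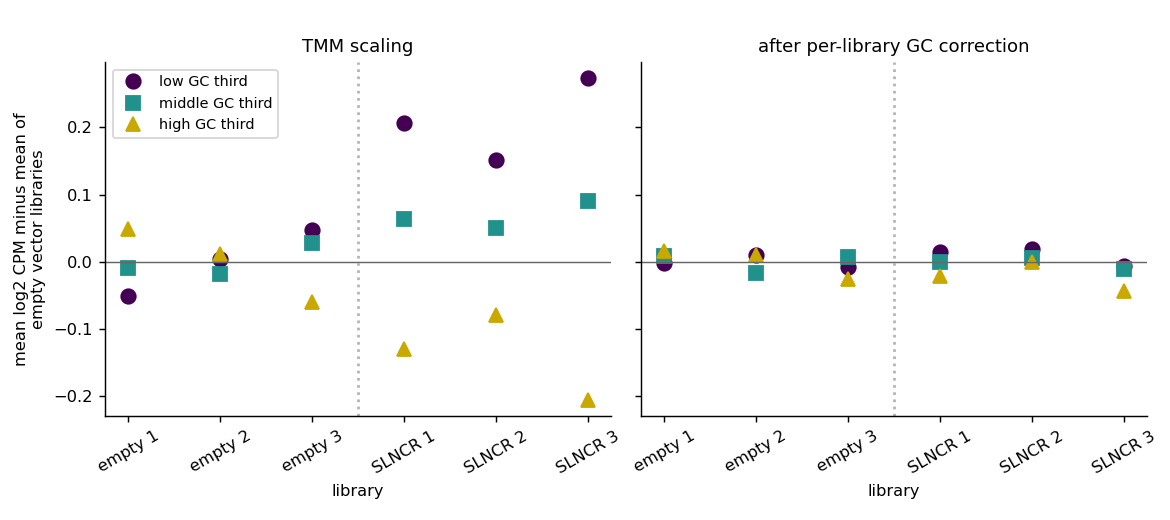
Mean log2 CPM of the mitotic genes minus the mean of the empty vector libraries (y axis) in each of the 6 libraries (x axis), for members split into 3 sets by GC content, before (left) and after (right) the correction for GC content. On the left the set lowest in GC reaches 0.27 and the set highest in GC -0.21, both in SLNCR replicate 3; on the right the value farthest from 0 is -0.04, that of the set highest in GC in SLNCR replicate 3.

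Promoters were compared next, because CHR and CCAAT elements are shared by much of this program. RefSeq (GRCh38.p14) listed 64 promoters for 50 of the 59 genes, each from 250 bases before to 50 bases after the start. The promoters of SGO2, which rose, AURKB, which fell, and CCNB1, which did not pass, are shown with matches to the 2 elements in capitals. They lie at chr2:200525892-200526191 on the plus strand, chr17:8210176-8210475 on the minus strand and chr5:69166900-69167199 on the plus strand.
SGO2: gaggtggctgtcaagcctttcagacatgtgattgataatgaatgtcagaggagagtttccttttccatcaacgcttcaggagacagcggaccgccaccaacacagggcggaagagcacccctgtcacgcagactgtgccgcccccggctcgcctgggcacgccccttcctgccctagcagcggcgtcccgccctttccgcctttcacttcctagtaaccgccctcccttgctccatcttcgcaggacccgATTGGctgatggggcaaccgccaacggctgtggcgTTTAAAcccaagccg
AURKB: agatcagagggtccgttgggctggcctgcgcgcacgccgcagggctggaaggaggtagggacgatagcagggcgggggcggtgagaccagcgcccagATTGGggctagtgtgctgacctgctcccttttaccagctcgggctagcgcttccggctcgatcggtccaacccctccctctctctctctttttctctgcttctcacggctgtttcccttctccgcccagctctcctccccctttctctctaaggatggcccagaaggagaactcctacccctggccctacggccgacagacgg
CCNB1: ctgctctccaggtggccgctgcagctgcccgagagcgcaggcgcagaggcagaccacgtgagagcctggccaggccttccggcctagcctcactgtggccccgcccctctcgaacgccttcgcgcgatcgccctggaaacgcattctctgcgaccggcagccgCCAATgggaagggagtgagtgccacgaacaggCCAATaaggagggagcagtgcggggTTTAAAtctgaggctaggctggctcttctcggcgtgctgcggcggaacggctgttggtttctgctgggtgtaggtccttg
SGO2 has 1 CHR match and 1 CCAAT match, on the reverse strand as ATTGG. AURKB has 1 reverse CCAAT match in this window, and CCNB1 has 1 CHR and 2 CCAAT matches. SGO2 and AURKB each have 2 listed promoters, of which 1 is shown. It is the promoter with the most matches to the letters searched, or the first by position in a tie.

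The CHR letters searched, on both strands, were TTTGAA and the variants TTTAAA and TTCGAA and CTTGAA. A match was found in 52 of the 64 promoters, or 81.2%, and in 32.2% of all 35116 listed promoters of that length. A CCAAT match was found in 44, or 68.8%, and in 34.6% of all. Both together were in 40, or 62.5%, against 12.4% of all. A strict E2F match, to TTTCCCGC or TTTGGCGC or TTTCGCGC or TTCCCGCC on either strand, was in 5, or 7.81%, against 5.03%. These matches are letters in a window and not bound sites. The genes that rose had a CHR match in 15 of 18 promoters and a CCAAT match in 10, those that fell in 4 and 6 of 8, and those that did not pass in 33 and 28 of 38.

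In levels per length, the members spanned a wide range in empty vector cells. CDC20 was highest at 170.0 CPM per kb of merged exons, followed by CCNB1 at 120.2, and TOP2A was at 80.2. NDC80 at 8.48 and SGO2 at 9.19 CPM per kb were near the low end. The median of the 59 was 27.2 CPM per kb against 6.51 over all genes tested. Among the members, log2 fold change and log2 of the mean empty vector CPM gave r = -0.12 (n = 59 genes).

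**Figure D5:**
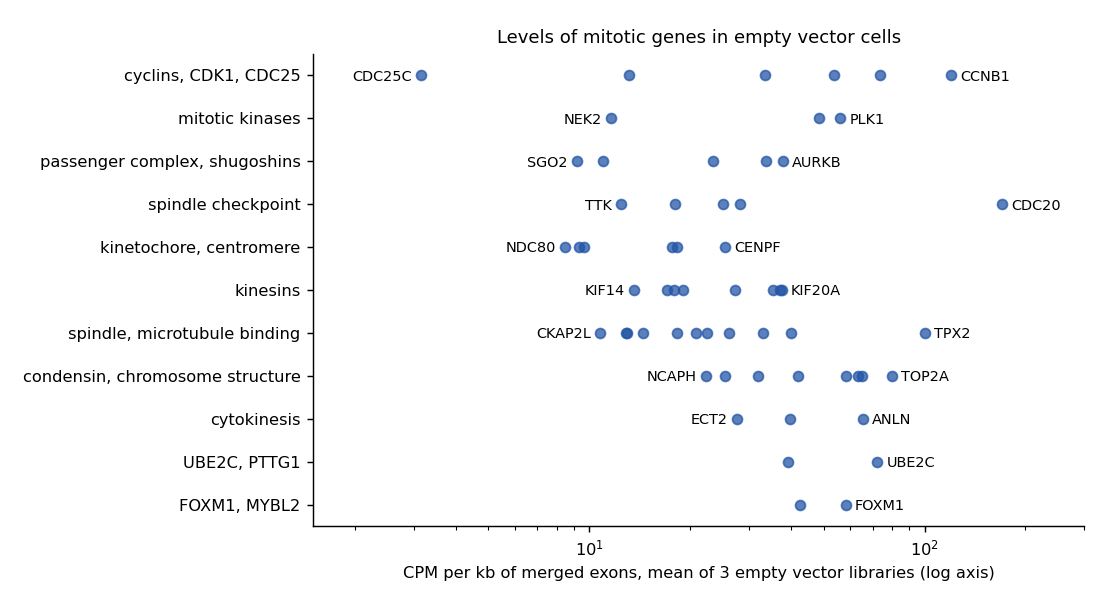
Mean level of each mitotic gene in the 3 empty vector libraries, in CPM per kb of merged exons on a log axis (x axis), by role (y axis), with the highest gene of each role named and, in roles of more than 2 genes, the lowest. CDC20 at 170.0 CPM per kb lies at the upper end of the plot.

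Outside the 59, 122 other genes of mitosis were listed by complex, and all 122 were tested. Of these, 16 rose and 13 fell, or 13.1% and 10.7% beside 8.84% and 7.67% of all genes tested. They had a median of 604 mean counts against 308 over all genes tested. Their median log2 fold change was 0.03, and r with GC content was -0.80 (n = 122 genes). Among 14 cohesin and separase genes, 6 rose and none fell. Those that rose included the cohesin regulators PDS5B (0.30, edgeR adjusted p = 0.0139) and PDS5A (0.23, adjusted p = 0.0159). At an unadjusted p below 0.05 in edgeR, 10 of the 14 passed, of which ESPL1 and CDCA5 were lower and the others higher. Of 34 further kinetochore and checkpoint genes, 5 fell and none rose. The 17 that passed at an unadjusted p below 0.05 in edgeR went in both directions. Of the 34, 19 had a log2 fold change above 0. SPC24, a partner of NUF2 in the NDC80 complex, was at -0.26 (edgeR adjusted p = 0.0246) and MAD2L2 at -0.35 (adjusted p = 0.0249). The median log2 fold change of the 34 was 0.09, or -0.06 after correction for GC content. Within the NDC80 complex, NDC80 and NUF2 had risen, SPC24 fell and SPC25, named after its values were seen, did not pass (0.08, edgeR adjusted p = 0.701).

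The anaphase-promoting complex had 2 of 17 genes higher and 2 lower, with its subunits CDC27 at 0.24 (edgeR adjusted p = 0.0207, 36.6% GC) and ANAPC11 at -0.37 (adjusted p = 0.0178, 57.5% GC). Of 7 further kinesins, 2 fell and none rose, with KIF18B at -0.27 (edgeR adjusted p = 0.0172) and KIF22 at -0.25 (adjusted p = 0.0273). At an unadjusted p below 0.05 in edgeR, 4 passed: these 2 and, in the other direction, KIF18A at 0.26 and KIF2A at 0.17. Among 15 further entry kinases and passenger genes, 1 rose and 2 fell, PKMYT1, which restrains CDK1, at -0.31 (edgeR adjusted p = 0.0166) and the cyclin CCNF at -0.29 (adjusted p = 0.018). Of 12 DREAM and MuvB genes, 2 rose and none fell (5 passed at an unadjusted p below 0.05), LIN9 at 0.30 (edgeR adjusted p = 0.0259) and LIN52 at 0.42 (adjusted p = 0.0458). Of 20 spindle and centrosome genes, 5 rose and 2 fell, with DEPDC1 at 0.40 (edgeR adjusted p = 0.0137) and the centriole protein SASS6 at 0.37 (adjusted p = 0.0159). None of the 3 other condensin subunits passed (edgeR; 1 at an unadjusted p below 0.05). After correction for GC content none of the 122 had an adjusted p below 0.05 in the edgeR fit, with 8 higher and 20 lower at an unadjusted p below 0.05, where 7.46% and 7.66% of all genes were.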

How the data were processed

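RNA of 3 empty vector and 3 SLNCR libraries was measured. The authors deposited raw whole-number counts per Ensembl gene for each library, and the submitters' processing notes name cutadapt, STAR, DESeq2 1.24.07 and the GRCh38 build; the strand setting of the counting is not given in the sources used here. Rows that name no gene (1857 of 20238, 2.15% to 2.59% of counts) were left out. So were 63 rows with the same counts as the row just before them and a mean of at least 10 counts, which left 18318 genes. Symbols, exons and GC content came from GENCODE 29.

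The test was that of edgeR 4.0.16 under R 4.3.3 on the counts (TMM scaling, default filterByExpr, robust quasi-likelihood F-test, two-sided, Benjamini-Hochberg adjustment over 12797 genes, threshold 0.05). No pair of libraries in a group agreed within sampling noise (chi-square per degree of freedom 1.74 to 6.58), so none was treated as a library deposited in duplicate; this does not show that the cultures were separate. The correction for GC content fitted a loess (span 0.5, degree 2) of each library's deviation in log2 CPM (prior count 2) on GC over genes above a mean log2 CPM of 1 and entered it as offsets. CPM values use TMM library sizes. Alternatives were DESeq2 1.42.0, other size factors and filters, a replicate block and leaving out each library.

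The members, the gene lists and the tests were chosen with earlier results of these data known. Library values are given for 12 members picked by role, whatever their result, and for up to 2 members per role with the smallest edgeR p; others are named where the text says so.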

Additional observations from a re-analysis of the deposited data

How the results depend on the processing

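Other size factors, DESeq2, other filters and the replicate block gave 13 to 20 mitotic genes higher and 5 to 7 lower, and of 210 log2 fold changes of 35 named genes under those settings none changed direction. Deviations of same-numbered libraries from their group means had r of 0.02 to 0.19, and those of other pairs -0.17 to 0.14. Whether the numbers pair the libraries is not settled by these values. With the replicate block 20 members were higher and 7 lower, with 1772 and 1751 over all genes, against 1131 and 981. The median of the members was 0.053 with upper quartile factors and 0.078 with no filter. With the correction for GC content, alone or with the replicate block, 0 members were higher and 0 lower in the edgeR fit (5 and 6, or 5 and 8, at an unadjusted p below 0.05). Over all genes 1 was higher and 1 lower, or 161 and 246 with the block; the members' median was -0.0051, or -0.0054 with the block, and r with GC was -0.18. At an edgeR adjusted p below 0.01, 0 members were higher and 0 lower, and 2 and 0 over all genes. Below 0.1, 20 members were higher and 7 lower, and 1838 and 1804 over all genes.

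Leaving out each library without the correction for GC content gave 0 to 21 members higher and 0 to 8 lower. Over all genes the counts were 1 to 1722 and 0 to 1644. The members' median ran from 0.051 to 0.092 and r with GC from -0.89 to -0.86. With the correction, 0 members were higher and 0 to 1 lower, and 0 to 293 and 0 to 375 over all genes. The median then ran from -0.016 to 0.0015 and r from -0.22 to -0.12. Among the 35 named genes, a change of direction came with the correction for GC content, alone or with the replicate block, for CCNB1 (-0.036 in both), AURKA (-0.0041 and -0.0036), BUB1 (-0.014 and -0.015), CENPE (-0.12 in both), KIF11 (-0.0051 and -0.0054), ASPM (-0.028 in both), NCAPG (-0.018 in both), TOP2A (-0.069 in both), ANLN (-0.040 and -0.039) and FOXM1 (0.035 in both). Without one library each, with or without that correction, values ran for CCNB1 from -0.062 to 0.092, CDK1 from -0.031 to 0.29, AURKA from -0.029 to 0.047, BUB1 from -0.032 to 0.11, CENPE from -0.16 to 0.15, KIF11 from -0.027 to 0.22, KIF20B from -0.0047 to 0.32, ASPM from -0.047 to 0.24, NCAPD2 from -0.13 to 0.013, NCAPG from -0.039 to 0.20, SMC4 from -0.0017 to 0.27, TOP2A from -0.098 to 0.15, ANLN from -0.052 to 0.15 and FOXM1 from -0.15 to 0.068. These ranges pool the fits with and without the correction. Without the correction, leaving out a library changed the direction of 1 of 210 values of the 35 named genes. That was AURKA, whose values ran from -0.0030 to 0.047. With the correction, 57 of 210 changed direction from the main fit. The causes were not tested. Depth limits the members with few counts most: the SE was 0.126 for CDC25C, at a mean of 109.5 counts, and 0.0436 for MKI67, at 7814.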
